A study of Homo sapiens with 2 samples.

Results

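Mitochondrial ribosomal proteins are the protein part of the mitoribosome, the machine that translates the few messenger RNAs made from mitochondrial DNA. All of these proteins are encoded in the nucleus, made by cytosolic ribosomes and imported into the organelle, where they assemble with mitochondrial ribosomal RNA into a large subunit, which joins amino acids, and a small subunit, which reads the messenger. The proteins that mitoribosomes make are core subunits of the respiratory chain and of ATP synthase. Expression was compared between PC-3 cells, an established androgen-independent human prostate cancer line, exposed to 10 µmol/L Riccardin D (RD, a macrocyclic bisbibenzyl of liverworts) for 24 h and control PC-3 cells, with 1 Affymetrix HG-U133 Plus 2.0 array for each. The treatment protocol gives the control the DMSO vehicle, whereas its source name calls the cells not treated, and the dose comes from the supplementary material of the study because the sample labels hold none.

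Genes were taken as members when the platform annotation paired a probe set with a symbol that begins with MRPL or MRPS and a digit, and with no other gene. This gave 142 of 54613 probe sets and 77 of 19775 genes. Of these genes, 75 encode proteins, 48 of the large subunit (MRPL, 83 probe sets) and 27 of the small subunit (MRPS, 57 probe sets). The other members, the antisense transcript MRPL20-AS1 and the pseudogene MRPL45P2, are treated apart. A probe set is a group of short oligonucleotides that read 1 transcript or several that share sequence. The deposited value is its MAS5 signal, an intensity on a linear scale. The probe set with the highest mean log2 signal stood for its gene. All 75 protein genes had RD and control signals of at least 377.4 (the 75th percentile over both arrays), so none was lost at the floor of 66.9, the median of all signals.

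Both arrays had been scaled alike, with means of 495.9 (RD) and 495.8 (control) once the highest and lowest 2% of probe sets were left out. Since each condition was measured on 1 array, the spread between cultures is unknown, no p-value can be given, and precision is limited by the number of arrays. A gene was counted as lower or higher at a difference of 2-fold or more with at least 1 signal at the floor. As a measure of scatter, the SD of log2 differences among the probe sets that read 1 gene was 0.76 over all genes at the floor and 0.34 at the 75th percentile. Over the members it was 0.53 and 0.29. This SD mixes measurement error with unequal transcripts of a gene and does not hold differences between cultures. Of the epithelial markers, KRT18 had signals of 15416.6 (RD) and 10224.2 (control) and KRT8 had 159.3 (RD) and 113.8 (control), while KRT19, EPCAM and CDH1 were under the floor on both arrays. None of the 3 leukocyte markers measured, 2 of 4 fibroblast markers and 1 of 3 endothelial markers reached the floor, with sums of 55.5, 484.7 and 122.4 on the RD array, against 68, 561.4 and 164.7 on the control array, and their part in the results was not tested. In a bulk extract, fewer cells with a transcript and less of it per cell cannot be told apart.

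In RD-treated cells, the signals of most mitochondrial ribosomal protein genes were lower by a small amount. Of the 75 genes, 62 were lower and 13 higher, or 82.7% lower, against 50.1% of all 12818 genes at the floor. The median log2 difference (RD minus control) was -0.43, which is 0.741 of the control signal, against -0.0022 over all genes and 0.0049 over the 8094 genes at or above the 75th percentile. The summed signal of the 75 genes was 270936 in RD-treated cells and 362512 in control cells, a ratio of 0.747. Few single genes passed 2-fold. Only 6 of 75 were counted as lower (8%) and none as higher, while 13.3% of all genes at the floor were lower and 12.1% higher, as were 10.9% and 9.91% of genes at or above the 75th percentile and 11.1% and 9.89% of the 7308 genes within the signal range of the members. The members therefore held no larger share of 2-fold lower genes than the arrays as a whole. At 1.5-fold, 24 members (32%) were lower and 1 was higher (1.33%), against 24.7% and 22.8% of all genes at the floor and 23.0% and 21.3% at the 75th percentile. Set against the within-gene SD of 0.34, 42 of 75 members (56%) were lower by more than that SD and 3 (4%) were higher by more, against 32.3% and 31.7% of genes at or above the 75th percentile.

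**Figure D1:**
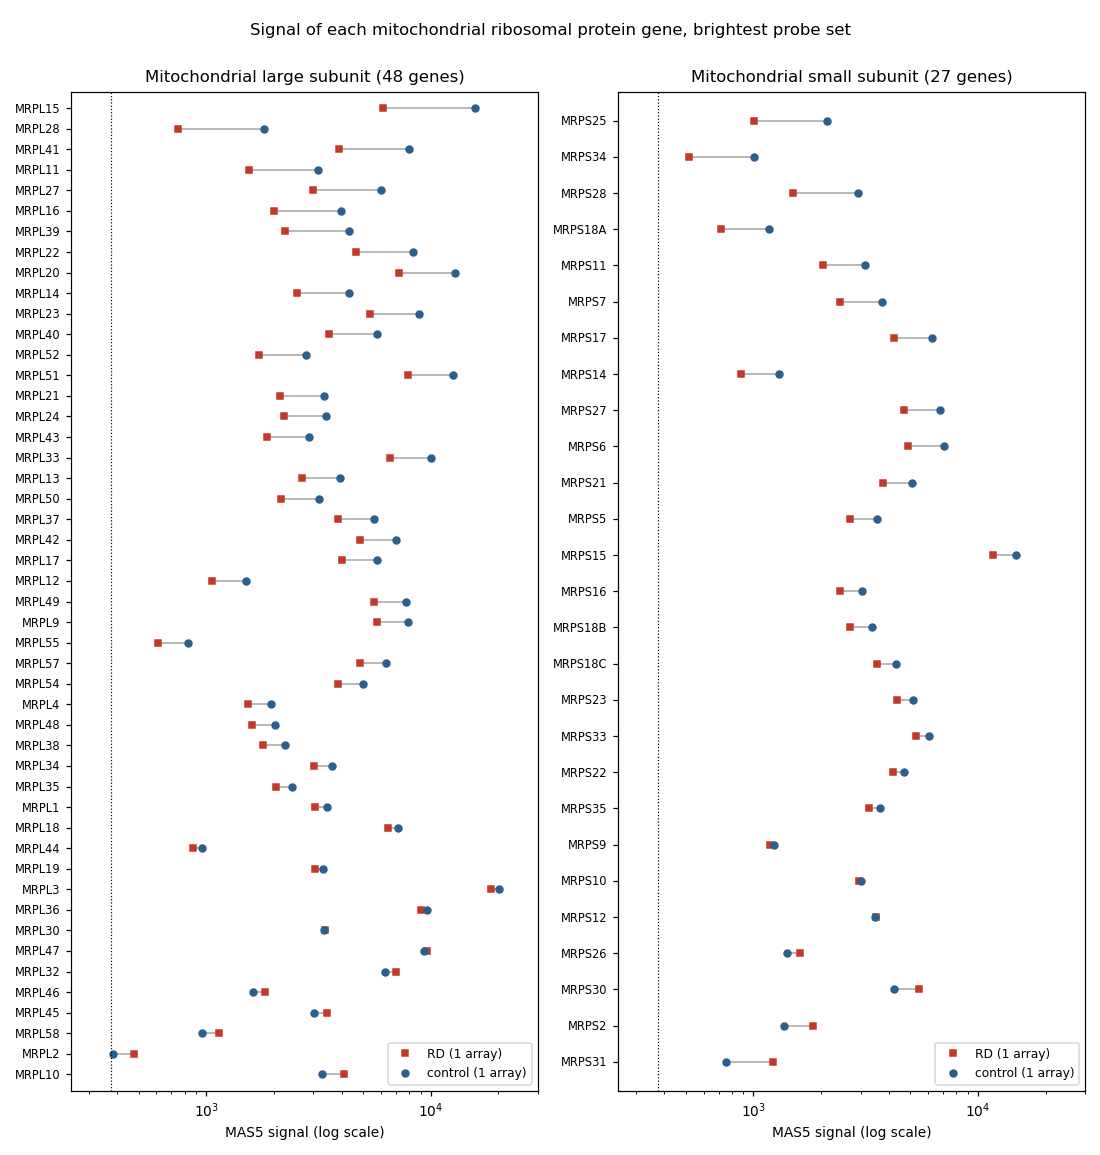
MAS5 signal (horizontal, log scale) of the probe set that stands for each of the 48 large subunit and 27 small subunit genes on the RD array (red squares) and the control array (blue circles), ordered from the lowest to the highest difference. The dotted line is the 75th percentile of all signals (377.4), and the RD square lies left of the control circle in 62 of 75 rows.

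In the large subunit, 40 of 48 genes had a lower RD signal, 5 of them at least 2-fold, and the median log2 difference was -0.49 (quartiles -0.70 and -0.14). The lowest was MRPL15, a core protein with a bacterial homologue, with a signal of 6152.1 in RD-treated cells and 15754 in control cells (2.56-fold lower). MRPL28 followed with 745.4 in RD-treated cells and 1812.8 in control cells (2.43-fold lower). The remaining 3 lay just past 2-fold. MRPL41, a protein without a bacterial counterpart, had 3883.4 in RD-treated cells and 7993.5 in control cells (2.06-fold lower). MRPL11, whose bacterial homologue forms the base of the stalk that recruits translation factors, had 1549.1 in RD-treated cells and 3148.2 in control cells (2.03-fold lower). MRPL27, the homologue of a bacterial protein that reaches the peptidyl transferase centre, had 2974.1 in RD-treated cells and 5996 in control cells (2.02-fold lower). After quantile normalization MRPL41 and MRPL27 were no longer 2-fold lower (log2 differences of -0.99 each), and MRPL41 was at -0.89 with the median over its probe sets. MRPL16 was just short of 2-fold, with 2002.9 in RD-treated cells and 3998.3 in control cells. The differences among MRPL41, MRPL11, MRPL27 and MRPL16 were far smaller than the within-gene SD. The stalk proteins lay far apart, with MRPL12, which binds elongation factors, at 0.707 of control and MRPL10, its anchor, at 4091.8 in RD-treated cells and 3290.4 in control cells (1.24-fold higher).

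MRPL10 was also the highest of the large subunit, so that no gene of this subunit was 1.5-fold higher. MRPL2, a core protein next to the peptidyl transferase centre in bacteria, had 475.2 in RD-treated cells and 382.7 in control cells (1.24-fold higher), and its other probe set gave 0.31 on the log2 scale as well. MRPL58, a peptidyl-tRNA hydrolase built into the subunit, was at 1.19 of control. MRPL45, which anchors the mitoribosome to the inner membrane, was at 1.14 of control, and so was MRPL46. Among the probe sets with the highest signals of the subunit, MRPL3 was at 0.923 of control (18602.1 in RD-treated cells and 20155.5 in control cells) and MRPL51 at 0.631 (7892.5 in RD-treated cells and 12506.5 in control cells). The rest of the large subunit filled the range in between. MRPL39, a mitochondria-specific protein, had 2249.2 in RD-treated cells and 4339.2 in control cells (1.93-fold lower), and MRPL22, whose bacterial homologue lines the exit tunnel, had 4643.4 in RD-treated cells and 8354.1 in control cells (1.80-fold lower). MRPL20, which is needed early in the assembly of the bacterial subunit, was at 0.562 of control and MRPL14, an intersubunit contact, at 0.585. MRPL23 and MRPL24, homologues of proteins around the exit of the bacterial tunnel, were at 0.603 and 0.646. MRPL34, MRPL1, MRPL18, MRPL44 and MRPL36 were at 0.830 to 0.941, and MRPL30 and MRPL47 differed least, at 1.01 and 1.03 of control. The 29 proteins listed as bacterial-type and the 19 listed as mitochondria-specific had medians that lay close together, -0.50 with 24 lower and -0.48 with 16 lower. The list first used put MRPL55 with the bacterial type and gave -0.47 and -0.51, so that the order of the classes turned with 1 gene.

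In the small subunit, 22 of 27 genes had a lower RD signal, 1 of them at least 2-fold, and the median log2 difference was -0.32 (quartiles -0.56 and -0.11). MRPS25, a mitochondria-specific protein, was the lowest, with 1005.4 in RD-treated cells and 2120.1 in control cells (2.11-fold lower). MRPS34 had 514.3 in RD-treated cells and 1009.8 in control cells, and MRPS28 had 1502 in RD-treated cells and 2928.6 in control cells, 1.96-fold and 1.95-fold lower. They were followed by MRPS18A at 0.611 and MRPS11, a homologue of a bacterial platform protein, at 0.645 of control. At the other end stood MRPS31, the only mitochondrial ribosomal protein gene past 1.5-fold in that direction, with 1219.4 in RD-treated cells and 754.3 in control cells (1.62-fold higher). MRPS2 was 1.34-fold higher, MRPS30 1.29-fold higher and MRPS26 1.14-fold higher. The direction of MRPS30 depended on the probe set, since its other probe sets had 375.7 and 360.8 in RD-treated cells, against 463.3 and 401.2 in control cells, and the median over all 3 was a log2 difference of -0.15. For MRPS31 that median was 0.24, under 1.5-fold. MRPS12, the homologue of the bacterial protein that guards decoding accuracy, differed little, with 3529.5 in RD-treated cells and 3485.1 in control cells. MRPS7, a head protein that is among the first to bind small subunit rRNA in bacteria, was at 0.650 of control, MRPS17 at 0.677, MRPS14 at 0.679 and the pentatricopeptide repeat protein MRPS27 at 0.688. MRPS15 (0.793 of control), MRPS6 (0.693) and MRPS33 (0.874) had the probe sets with the highest signals. Of the 3 MRPS18 paralogues, which share a bacterial ancestor, MRPS18B was at 0.799 and MRPS18C at 0.825, against 0.611 for MRPS18A. MRPS9 and MRPS10 differed little, at 0.961 and 0.977. The 17 genes with bacterial homologues had a median of -0.40 (15 lower) and the 10 mitochondria-specific genes a median of -0.18 (7 lower). Both medians rest on the brightest probe set of each gene, and MRPS30, whose direction depended on the probe set, is 1 of the 10.

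The large subunit median was 0.17 below that of the small subunit on the log2 scale (-0.49 against -0.32), and the subunits overlapped almost fully. Of 48 large subunit genes, 46 lay within the range of the small subunit, and of 27 small subunit genes, 24 lay within the range of the large subunit. The share of genes with a lower signal was 83.3% in the large and 81.5% in the small subunit. MRPS18A and MRPS30 are named as small subunit proteins but sit in the large subunit of the human mitoribosome, and counting them there left the difference of medians at -0.17. With the median over the probe sets of each gene, which keeps all 75 genes, the difference was -0.20. With only probe sets without shared-sequence suffixes, which leave 24 large and 16 small subunit genes, it was -0.054.

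**Figure D2:**
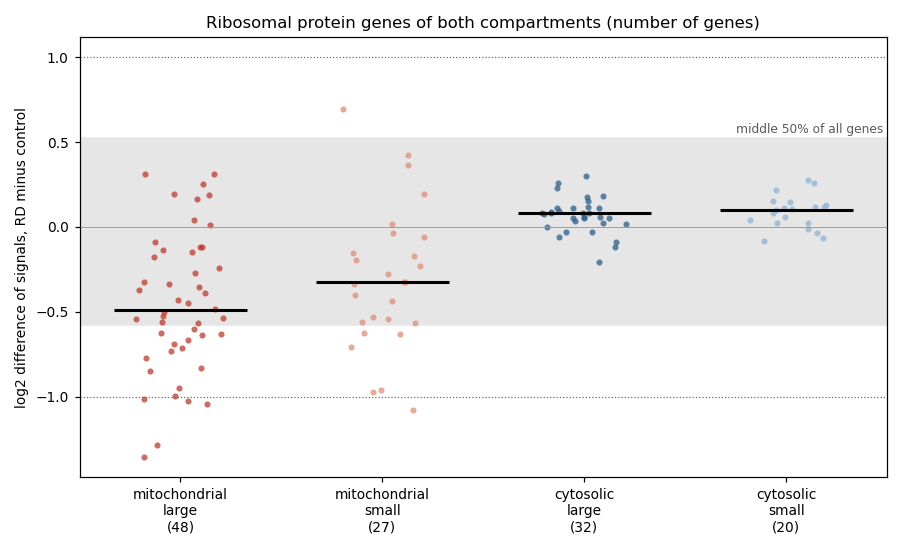
Log2 difference of signals (RD minus control, vertical) of mitochondrial and cytosolic ribosomal protein genes that reached the floor, by subunit, with the number of genes in brackets. Bars are medians (-0.49, -0.32, 0.08 and 0.10 from left to right), dotted lines mark 2-fold, the grey band holds the middle 50% of all genes, and horizontal scatter within a group has no meaning.

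Cytosolic ribosomal proteins, which form the ribosome that makes nearly all cell proteins including the mitochondrial set, did not share the shift. Of 77 such genes on the list, 52 had a probe set of their own. None reached 1.5-fold in either direction, and 41 of 52 had a higher RD signal, although after quantile normalization this held for only 18 of 32 large and 12 of 20 small subunit genes. Their median log2 difference was 0.08 (0.040 after centring on array medians and 0.011 after quantile normalization), within a range of -0.21 (RPL35A) to 0.30 (RPL36A), and 0.08 and 0.10 for the large and small subunits. RPL36A, at the top of the range, was read by a dim probe set, with 198.4 in RD-treated cells and 161.1 in control cells. RPLP2, at 0.26, was dim as well, with 331.8 in RD-treated cells and 277.3 in control cells. The median of the mitochondrial set was 0.51 lower than that of the cytosolic set, and 51 of 75 mitochondrial genes lay below the lowest cytosolic gene. That gene was only at -0.21. At least 32.3% of genes at or above the 75th percentile also lay below it, since that share was lower by more than 0.34. The cytosolic probe sets had median signals of 40824.4 (RD) and 38769.7 (control), against 3013.9 (RD) and 3631 (control) for the mitochondrial set, and the part of this gap in the narrow cytosolic range was not tested. Of 37 other genes at or above 35011.4, the lower quartile of the cytosolic set, 7 were counted as 2-fold lower or higher. Among all genes at or above the 75th percentile, 10.9% were counted as lower and 9.91% as higher. The SD of these 37 genes was 0.58, against 0.10 among cytosolic ribosomal protein genes. Among the 44 genes at or above the cytosolic median signal, cytosolic ribosomal protein genes included, 1 was counted as lower and 1 as higher.

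**Figure D3:**
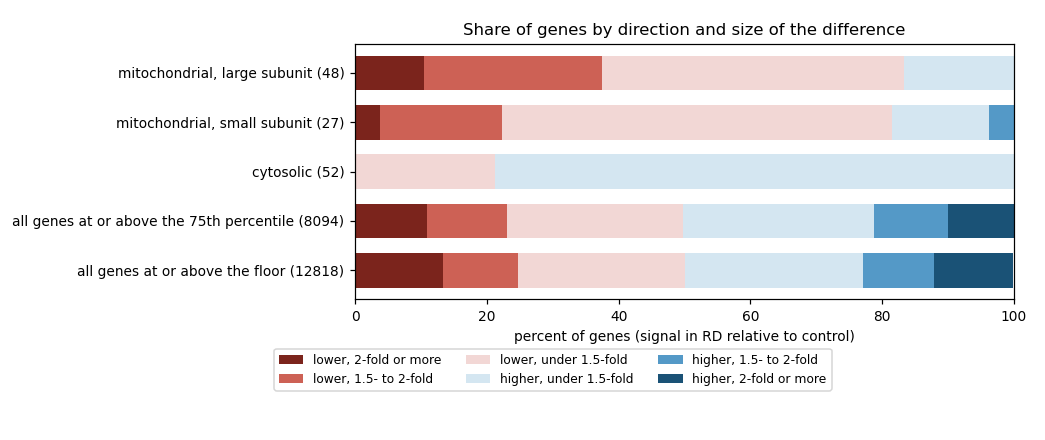
Percent of genes (horizontal) whose signal in RD-treated cells was lower (red shades) or higher (blue shades) than in control cells, split at 1.5-fold and 2-fold, for both mitochondrial subunits, cytosolic ribosomal proteins and all genes at or above either signal limit, with gene numbers in brackets. The mitochondrial bars are mostly red but hold few dark segments (5 and 1 genes 2-fold lower, none 2-fold higher), the cytosolic bar holds only the palest shades, and 3 of all genes with equal signals are not drawn.

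Several members were read by more than 1 probe set. Of the 140 probe sets of the 75 protein genes, 127 reached the floor on at least 1 array, and 97 of these had a lower RD signal. Among them 9 were counted as lower and 3 as higher, against 13.2% and 13.4% of all single-gene probe sets at the floor. Leaving out the probe set that stands for each gene, 21 of 26 further probe sets at or above the 75th percentile were lower, and so were 14 of 26 between the floor and the 75th percentile. The lower signals thus prevailed among bright probe sets, while the dim ones were spread over both directions. Of 29 genes with several probe sets at the floor, all probe sets were lower in 14, all were higher in 2 (MRPL2 and MRPS31) and both directions occurred in 13. For MRPL41, all 4 probe sets at the floor were lower, by 0.50 to 1.04 on the log2 scale, and for MRPS22 all 4 were slightly lower, by 0.01 to 0.22.

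In 10 genes the probe sets lay at least 2-fold apart, namely MRPL19, MRPL30, MRPL42, MRPL50, MRPL57, MRPS5, MRPS11, MRPS15, MRPS18C and MRPS25. The widest was MRPS25, where the probe set that stands for the gene was 2.11-fold lower, a second had 358.6 in RD-treated cells and 174.7 in control cells (2.05 times control), and another was at 0.955 of control. The call of MRPS25 therefore rests on 1 of 3 probe sets. In MRPS18C the bright probe set was at 0.825 of control and a dim one, with 105.6 in RD-treated cells and 41.7 in control cells, pointed the other way. In MRPL42 the probe set without a suffix had 104.1 in RD-treated cells and 334 in control cells, 0.312 of control, while the bright ones had log2 differences of -0.53 and -0.51. MRPL57 had 3 probe sets with log2 differences of -0.74 to -0.21 and 1 of 0.92. In MRPS11, MRPS5 and MRPL30, the probe sets with the highest log2 differences (0.76, 0.77 and 0.94) were dim, with at most 368.3 in RD-treated cells. In MRPS15, 3 probe sets had log2 differences of -0.58 to -0.18 and a dim one had signals of 235.2 in RD-treated cells and 117.4 in control cells. The median over probe sets was 0.061 for MRPS11 and -0.058 for MRPS5. MRPL19 and MRPL50 each had a dim probe set with a low log2 difference, -1.52 and -1.81. Of the 6 genes counted as lower, 5 were read by a probe set whose name marks sequence shared between transcripts, and 4 had no other probe set. Both traits were common among the 75 members, of which only 31 were read by a probe set without such a mark and 38 had 1 single-gene probe set.

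**Figure D4:**
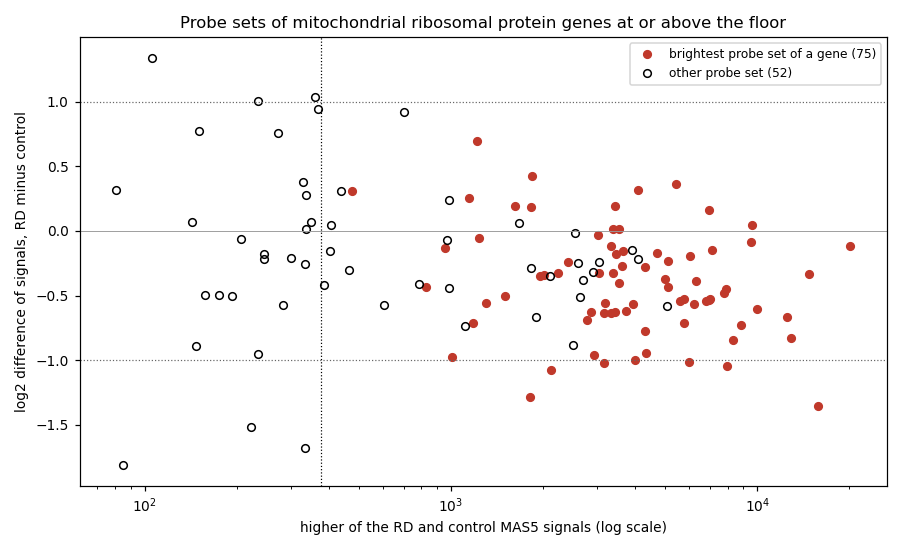
Log2 difference of signals (RD minus control, vertical) against the higher of both signals (horizontal, log scale) for the 127 probe sets of mitochondrial ribosomal protein genes at or above the floor. Filled red circles stand for their gene (75), open circles are its other probe sets (52), the vertical dotted line is the 75th percentile (377.4), and the points right of it lie mostly below 0 while those left of it spread to both sides.

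Among other nuclear genes of mitochondrial gene expression, 4 of 5 mitoribosomal proteins under other symbols were lower as well, while translation factors, assembly factors and transcription genes were spread over both directions. Of the 5 mitoribosomal proteins or partners under other symbols, GADD45GIP1 (CRIF1), a large subunit protein, was 2.07-fold lower (1335.1 in RD-treated cells and 2766.8 in control cells), and CHCHD1, a small subunit protein, was 1.95-fold lower. The small subunit GTP-binding protein DAP3 was at 1.13 of control, and PTCD3 and the insertase OXA1L were 1.21-fold and 1.03-fold lower. Of 15 translation factors, 7 were lower and 8 higher, with none past 2-fold and a median of 0.11. SLIRP, which stabilises mitochondrial messengers together with LRPPRC, had 6887.7 in RD-treated cells and 13323 in control cells (1.93-fold lower), whereas LRPPRC itself was at 1.45 of control. MTFMT, which formylates the initiator tRNA, was 1.47-fold lower, and the release factor relative MTRFR and RMND1 were both at 1.77 of control. The elongation factor TUFM was 1.41-fold lower and the initiation factor MTIF2 was at 1.70 of control.

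Of 25 genes of mitoribosome assembly and rRNA modification at the floor, 9 were lower and 16 higher, with a median of 0.08. The dimethyltransferase TFB1M, which modifies small subunit rRNA, was 1.69-fold lower and the small subunit GTPase ERAL1 was 1.46-fold lower. The rRNA methyltransferase MRM1 was 2.04-fold higher, from dim signals of 187.6 in RD-treated cells and 92.1 in control cells, and NSUN4 was 1.52-fold higher. In mitochondrial transcription and RNA processing, 5 of 13 genes were lower and 8 higher, with a median of 0.10. The RNA helicase SUPV3L1 had 1837.4 in RD-treated cells and 750 in control cells (2.45-fold higher), and the mitochondrial RNA polymerase POLRMT had 995.4 in RD-treated cells and 458.9 in control cells (2.17-fold higher). HSD17B10, a subunit of mitochondrial RNase P, was 2.16-fold lower and its catalytic partner PRORP was 1.82-fold lower at signals near the floor. The transcription factor TFB2M was just short of 2-fold, at 1.98 of control, while TFAM was at 1.06. All 9 nuclear regulators of mitochondrial genes at the floor had a higher RD signal, also after centring and quantile normalization, with a median of 0.55. They ranged from ESRRA at 1.05 and GABPA at 1.11 to GABPB1 at 1.67 and MYC at 2.16 of control. Each was read from its brightest probe set only, although YY1 had 6 probe sets and NRF1 had 5. PPARGC1B was near the floor, with 92.9 in RD-treated cells and 75.1 in control cells. PPARGC1A was under the floor on both arrays. Of the mitochondrial transcripts themselves, ND2, ND4 and ATP6 were within 1.10-fold of control (ND4 was the only one higher, and none was after centring or quantile normalization), and ND6, the only one of the 4 that is read from the other strand, was 1.74-fold lower. ND6 was also dimmer, with 3033.9 in RD-treated cells and 5287.6 in control cells, against at least 34177.4 for ND2, ND4 and ATP6. The part of this signal gap was not tested.

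**Figure D5:**
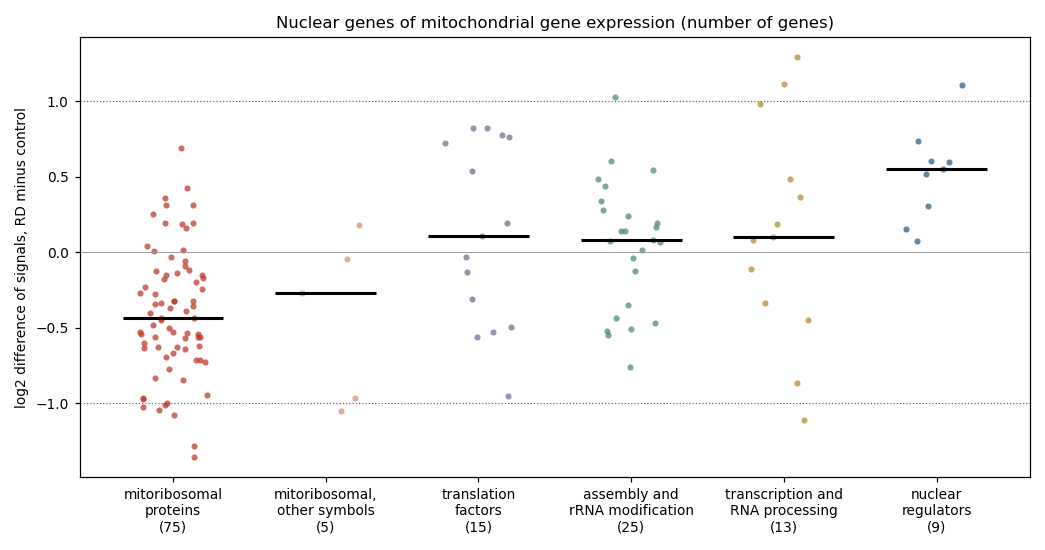
Log2 difference of signals (RD minus control, vertical) of the genes that reached the floor in 6 groups of nuclear genes for mitochondrial gene expression, with gene numbers in brackets. Bars are medians (-0.43, -0.27, 0.11, 0.08, 0.10 and 0.55 from left to right) and dotted lines mark 2-fold, and all 9 nuclear regulators lie above 0.

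Promoters of the members were examined for letters they share, a feature that the selection did not use. RefSeq windows of GRCh38.p14, with 250 bases before and 50 bases after the gene start, were held for 67 of 75 genes and for 15842 protein-coding genes in all. MRPL2, MRPL10, MRPL13, MRPL15, MRPL21, MRPL23, MRPL35 and MRPS28 had no entry. The YY1 element, the 10 letters in capitals in the first 3 stretches shown next, which contain a binding site of the zinc finger factor YY1, was found on either strand in 12 of 67 member promoters (17.9%), in 1.93% of all promoters and in 1 of 46 promoters of cytosolic ribosomal proteins (2.17%). The ETS core CCGGAAG, a site type of the factor GABPA, was found in 28 of 67 (41.8%), against 14.2% of all promoters and 37.0% of cytosolic ribosomal protein promoters. The palindromic NRF1 motif was in 1 of 67 (1.49%), against 1.75% of all promoters. With its middle pair of letters left free, it was in 9 of 67, or 13.4%, against 1898 of all 15842 promoters. Either the YY1 element or the ETS core was present in 36 of 67 promoters, and both in 4. Members with the YY1 element had a median log2 difference of -0.32, against -0.43 without it, and those with the ETS core -0.33, against -0.45 without it. A match is a description of letters and not evidence of binding.

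The stretches around the YY1 element of 6 members are shown to make its place visible, with the element in capitals on the strand of the gene and its first base counted from the gene start, which is 0. In 9 of the 12 members the element began after the gene start, at 6 to 35, within the last 50 bases of the window. In the others it began before the start, at -37, -98 and -224. The 6 are the 3 lowest and the 3 highest differences among the 12, namely MRPL22 (element at 35, log2 difference -0.85), MRPS18A (at 9, -0.71), MRPL52 (at -98, -0.69), MRPL32 (on the other strand, so that the capitals show the reverse complement, at -224, 0.16), MRPL46 (at 8, 0.19) and MRPS30 (at 13, 0.36).
MRPL22, chr5:154941098-154941122, plus strand: gggagggcgaAAGATGGCGGcggca
MRPS18A, chr6:43687763-43687792, minus strand: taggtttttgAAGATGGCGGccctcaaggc
MRPL52, chr14:22829779-22829808, plus strand: acgatgacccAAGATGGCGGagccgtgatt
MRPL32, chr7:42932142-42932171, plus strand: tacccgcgctCCGCCATCTTtacccgaaga
MRPL46, chr15:88467361-88467390, minus strand: gggagaacgaAAGATGGCGGcgcccgtaag
MRPS30, chr5:44808950-44808979, plus strand: atcgcgggcaAAGATGGCGGcggccaggtg

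The 250 bases before the gene start are given for the lowest and highest genes of each subunit with an entry and with sequence that could be shown, which were MRPL28 and MRPL58 for the large subunit and MRPS25 and MRPS31 for the small subunit. Capitals mark matches to the ETS core on either strand, and none of these stretches held the YY1 element or the NRF1 motif. MRPL58 had 2 ETS matches, beginning 193 and 8 bases before the start, and MRPS31 had 1 that began 32 bases before it. MRPL28 had no match before the start and 1 that began 7 bases after it, and MRPS25 had none.
MRPL28, chr16:370539-370788, minus strand: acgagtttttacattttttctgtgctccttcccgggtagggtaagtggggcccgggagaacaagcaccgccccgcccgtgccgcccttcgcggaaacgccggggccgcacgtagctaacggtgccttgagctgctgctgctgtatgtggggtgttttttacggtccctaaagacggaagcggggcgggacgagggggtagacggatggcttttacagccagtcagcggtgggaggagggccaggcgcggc
MRPL58, chr17:75012420-75012669, plus strand: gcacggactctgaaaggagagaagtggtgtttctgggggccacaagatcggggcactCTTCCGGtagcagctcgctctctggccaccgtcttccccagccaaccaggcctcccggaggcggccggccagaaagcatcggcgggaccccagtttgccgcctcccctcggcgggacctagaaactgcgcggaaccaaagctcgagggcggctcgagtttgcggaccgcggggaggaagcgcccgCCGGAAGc
MRPS25, chr3:15065316-15065565, minus strand: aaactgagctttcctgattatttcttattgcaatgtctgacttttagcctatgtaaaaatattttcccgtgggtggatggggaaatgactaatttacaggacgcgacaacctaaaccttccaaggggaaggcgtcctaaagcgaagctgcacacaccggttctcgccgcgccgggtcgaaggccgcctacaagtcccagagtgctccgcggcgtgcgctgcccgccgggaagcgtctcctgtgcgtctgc
MRPS31, chr13:40771191-40771440, minus strand: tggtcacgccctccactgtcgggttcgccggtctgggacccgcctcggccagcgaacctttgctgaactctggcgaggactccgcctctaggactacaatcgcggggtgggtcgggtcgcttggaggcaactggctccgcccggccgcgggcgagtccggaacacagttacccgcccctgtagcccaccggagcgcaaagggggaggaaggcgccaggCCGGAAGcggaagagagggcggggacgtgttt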

How the data were processed

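Total RNA of 1 RD-treated and 1 control PC-3 culture was measured by the authors on Affymetrix HG-U133 Plus 2.0 arrays. The authors deposited intensities, which are MAS5 signals per the labels, for 54613 probe sets. Neither the version of MAS5 nor its scaling target was stated. MAS5 subtracts mismatch signals, so dim values are noisy. No further normalization was applied, and log2 differences (RD minus control) had no offset. Of the probe sets, 41091 had 1 gene in the platform annotation, 1801 had several and 11721 had none listed, and both kinds were left aside. All 75 member symbols were unchanged in RefSeq.

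No test was made, since each condition had 1 array. The members and gene lists were chosen with earlier results of these data known. Named members were those past 2-fold, the 5 lowest and 5 highest and the 3 highest in signal of each subunit, and genes whose probe sets lay 2-fold apart. In other lists up to 2 genes at each end were named. Other members, and in the other lists LRPPRC, TUFM, MTIF2, TFB2M, TFAM, PPARGC1A, PPARGC1B and the mitochondrial transcripts, were picked once their values were known. Alternatives covered scaling, an offset of 17.1 (the 25th percentile), the choice of probe set, the floor, the fold and the subunit of MRPS18A and MRPS30. Scripts were tested on simulated data. Software was Python 3.11.15 with pandas 2.3.3, numpy 2.4.6 and matplotlib 3.10.9.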

Additional observations from a re-analysis of the deposited data

How the results depend on the processing

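No paired analysis was possible because each condition had 1 array, and no replicate could be left out. The median of the large subunit was -0.36 with the median over all probe sets of a gene and -0.33 with only probe sets without shared-sequence suffixes, which left 40 members, and that of the small subunit was -0.16 with the median over probe sets. Centring on array medians, quantile normalization, the offset, other floors and raising dim signals moved each of these medians, and that of cytosolic ribosomal proteins, by less than 0.1, and no median changed its sign under any alternative run. The median of the large minus that of the small subunit was -0.054 with probe sets without suffixes and -0.20 with the median over probe sets. The count of members 2-fold lower was 2 of 40 with probe sets without suffixes (MRPL15 and MRPL42), 5 of 75 after quantile normalization (MRPL27 and MRPL41 lost, MRPS34 gained), 4 of 75 with the median over probe sets (MRPL41 and MRPS25 lost) and 9 of 75 after centring (MRPL16, MRPS28 and MRPS34 gained). Over all genes, the share 2-fold lower was 13.9%, 14.0%, 12.9% and 14.2% at these settings, in the same order. The count of members lower was 24 (32%) at 1.5-fold and 0 at 3-fold, against 24.7% and 6.05% of all genes. No member was 2-fold higher except MRPS18C with the median over probe sets and MRPS15 with probe sets without suffixes (1 each), and 1 was higher at 1.5-fold. Of all genes, 11.8%, 12.7% and 22.8% were higher at these settings, in the same order. With the middle pair of letters of the NRF1 motif free, an alternative chosen after the data were seen, 9 of 67 promoters matched, against 1898 of all 15842. Placing MRPL55 with the mitochondria-specific proteins was also decided after the data were seen. With 1 array per condition, any difference between the cultures other than RD cannot be told apart from RD.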

Other observations

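Of the members that encode no ribosomal protein, MRPL20-AS1, an antisense transcript, had a signal of 495.1 in RD-treated cells and 300.5 in control cells (1.65 times control), and MRPL20 itself was at 0.562 of control. The pseudogene MRPL45P2 was under the floor on both arrays, with 5.5 in RD-treated cells and 0.6 in control cells, and no ratio is given. A further 4 probe sets pair a ribosomal protein gene or its pseudogene with another gene and were left out. The probe set shared by MRPS24 and the URGCP-MRPS24 readthrough was at 0.711 of control, that of MRPL53 and CCDC142 at 0.656 and that of MRPL51 and SPTLC1 at 0.552, while that of the pseudogene MRPS31P5 and THSD1 had 313.3 in RD-treated cells and 60.2 in control cells, 5.20 times control, with the control signal under the floor. The members showed little tie to signal, with median log2 differences of -0.43, -0.32 and -0.52 over the dimmest, middle and brightest 25 genes, of which 19, 21 and 22 were lower.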
